A study of Mus musculus with 2 samples.

Results

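The genes described here encode the constant parts of the antibody molecule and the chain that joins antibodies into polymers. They are the heavy chain genes Ighm, Ighd, Ighg3, Ighg1, Ighg2b, Ighg2c and Igha, the light chain genes Igkc and Iglc2, and Jchain. They were chosen by symbol, and 10 of 10 were found among the 32285 genes listed. Their counts came from droplet-based single-cell RNA sequencing of live spleen cells of C57BL/6 mice with chronic anaemia. One group of mice was injected with PHZ (an abbreviation that the labels do not spell out) and the other was bled, in both cases every 3 days for 1 month. Each treatment had 1 library made with 3′ chemistry, so both groups were anaemic, and untreated mice were not analysed here. How many mice stood behind a library, how old they were and whether red cells were lysed is not given in the sources used here. With 1 library per treatment there was no test between treatments, and a treatment, its mice and its library cannot be told apart. Ratios are PHZ over bleeding. Intervals are at 95% and hold counting error, not the spread between mice.

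The PHZ matrix held 128130213 unique molecular identifiers (UMIs, each a counted RNA molecule) and the bleeding matrix 145260780. Cells were named by marker genes with "-like", in a clustering that did not use immunoglobulin genes or Jchain, so the class names do not rest on the genes described. After filters and doublet removal 6113 PHZ cells and 8953 bleeding cells were kept, with a median of 12242 and 8045 UMIs. They included 1589 and 3597 B cell-like cells, 7 and 46 plasma cell-like cells, 455 and 1925 T cell-like cells, and 2947 and 2198 erythroid-like cells. The 14 plasma cell markers summed to 10727 and 8926 CPM (the usual scaled count, here UMIs of a gene over the class total without haemoglobin genes) in plasma cell-like cells, against 704 and 790 in B cell-like cells. The 10 B cell markers summed to 15413 and 14424 CPM in B cell-like cells and to 41.9 and 84.9 in T cell-like cells. These lists also named the classes, so the sums describe the classes and are no separate check of their names. Barcodes of 10 to 100 UMIs, 62389 and 72745 of them, served as a measure of free RNA and are called background barcodes. The libraries shared 16 barcodes that passed the filters in both.

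An antibody is built from paired heavy and light chains, and the constant gene spliced to the heavy chain variable segment sets its class. A B cell first makes IgM from Ighm, and a mature naive B cell makes IgD from Ighd as well by alternative processing of one long transcript. Class switching deletes the genes up to a downstream constant gene, after which the cell makes IgG (Ighg genes) or IgA (Igha). Each B cell normally uses a kappa (Igkc) or a lambda (Iglc) light chain, and most mouse B cells use kappa. A plasma cell secretes antibody in bulk, and the J chain links IgM and IgA monomers into polymers through a cysteine near the end of the secreted heavy chain. The spleen holds follicular, marginal zone and B-1 B cells, germinal centres where switched cells arise, and plasma cells of the red pulp.

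In mouse build GRCm38, with the GENCODE M21 annotation, the heavy chain members lie on the minus strand of chromosome 12, between 113254830 (the last base of Igha) and 113422730 (the first base of Ighm). Igkc lies on chromosome 6 (70726435 to 70726966, plus strand), Iglc2 on chromosome 16 (19198396 to 19200351, minus strand) and Jchain on chromosome 5 (88519809 to 88527891, minus strand). The last 60 coding bases, stop codon included, are shown for the heavy chains that the plasma cell results turn on, because this is the end that differs between heavy chains that pair with J chain and those that do not. Capitals mark a TGC cysteine codon, which in Ighm-201 and Igha-201 lies 2 codons before the stop and has no in-frame match in these stretches of the other transcripts printed.
Ighm-201, chr12:113420867-113420926, minus strand: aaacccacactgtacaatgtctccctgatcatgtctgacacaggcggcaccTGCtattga
Igha-201, chr12:113258768-113258827, minus strand: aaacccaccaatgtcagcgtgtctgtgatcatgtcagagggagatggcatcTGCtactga
Ighg2b-201, chr12:113306389-113306448, minus strand: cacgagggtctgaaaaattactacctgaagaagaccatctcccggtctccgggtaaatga
Ighg2c-202, chr12:113287389-113287448, minus strand: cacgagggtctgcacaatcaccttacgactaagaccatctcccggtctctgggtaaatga
Ighm-202, chr12:113418826-113419003, minus strand, over 2 exons: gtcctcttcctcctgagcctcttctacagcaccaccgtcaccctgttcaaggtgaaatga
Ighm-201 and Igha-201 have the fewest coding exons of their genes and end in the secreted tail, while Ighm-202 has the most coding exons and ends in the membrane anchor. The counts are per gene, so secreted and membrane forms were summed. Ighg2b and Ighg2c were 85.64% identical over 1010 aligned coding columns, with a longest shared run of 78 bases. UMIs could therefore be split between them. In plasma cell-like cells they were separated. The Ighg2c-led PHZ cells held 2939 and 3082 Ighg2c UMIs beside 0 of Ighg2b. The Ighg2b-led bleeding cells held 1110 and 4231 Ighg2b UMIs beside 0 and 1 of Ighg2c. For other cells such splitting was not tested.

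The lambda genes are closer still. The last 60 coding bases of the lambda genes are shown because this stretch is identical in Iglc2 and Iglc3. Capitals stand at the 13 bases where Iglc1 differs from Iglc2. The untranslated ends were not compared.
Iglc1, chr16:19061752-19061811, minus strand: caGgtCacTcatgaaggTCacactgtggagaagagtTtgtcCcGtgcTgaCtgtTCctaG
Iglc2, chr16:19198536-19198595, minus strand: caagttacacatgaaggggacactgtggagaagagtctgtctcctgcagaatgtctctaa
Iglc3, chr16:19065365-19065424, minus strand: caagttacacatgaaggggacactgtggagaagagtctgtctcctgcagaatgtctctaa
Over the coding sequence Iglc2 was 96.23% identical to Iglc3 and 72.27% identical to Iglc1. Values of Iglc2 could therefore take in UMIs of Iglc3, although these genes were separated in plasma cell-like cells, as given below. Light chain use of a B cell-like cell was read from the sum of Iglc1, Iglc2 and Iglc3.

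Among the cell groups, all of these genes were highest in plasma cell-like cells or in a B cell-like subset, and the order of the groups differed by gene. Since 3′ libraries count one end of each molecule, CPM levels were compared between genes without scaling by length. Igkc was the highest member in plasma cell-like cells, at 212594 CPM in PHZ and 305561 in bleeding. Jchain there was at 49343 and 46006 CPM, Ighm at 47731 and 77416, and Iglc2 at 97315 and 12930. In plasma cell-like cells the immunoglobulin genes and Jchain together made up 54.1% and 48.9% of UMIs without haemoglobin, against 1.39% and 1.30% in B cell-like cells and 0.0286% and 0.0376% in T cell-like cells.

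Ighm was next highest in immature B cells. Transitional-like cells had 5202 CPM (interval 5085 to 5322) in PHZ and 5380 (5252 to 5509) in bleeding, and precursor B-like cells 3480 (3318 to 3648) and 4960 (4167 to 5859). B-1 or memory-like cells followed at 3457 (3253 to 3671) and 3580 (3476 to 3687). Interferon-stimulated-like cells in PHZ (2899, 2652 to 3163) and germinal centre-like cells in bleeding (2682, 2594 to 2771) came next. Below them, follicular-like cells stood at 2410 (2362 to 2460) and 2241 (2212 to 2271), and marginal zone-like cells at 2245 (2123 to 2373) and 2389 (2336 to 2443). The intervals of neighbours overlapped for precursor B and B-1 or memory in PHZ, for transitional and precursor B in bleeding, and for follicular and marginal zone in PHZ.

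Outside the B lineage Ighm was lower by a wide margin but not at one level. The dendritic cell-like class had 316 CPM (289 to 344) in PHZ and the T cell-like class 235 (220 to 251). In bleeding, T cell-like (222 to 237), monocyte or macrophage-like (186 to 254), dendritic cell-like (186 to 222) and erythroid-like cells (173 to 196) were neighbours whose intervals overlapped in turn. Early progenitor-like cells were lowest, at 6.73 CPM in PHZ and 21.2 in bleeding. Background barcodes held 533 and 1813 CPM, more than any of these classes.

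**Figure D1:**
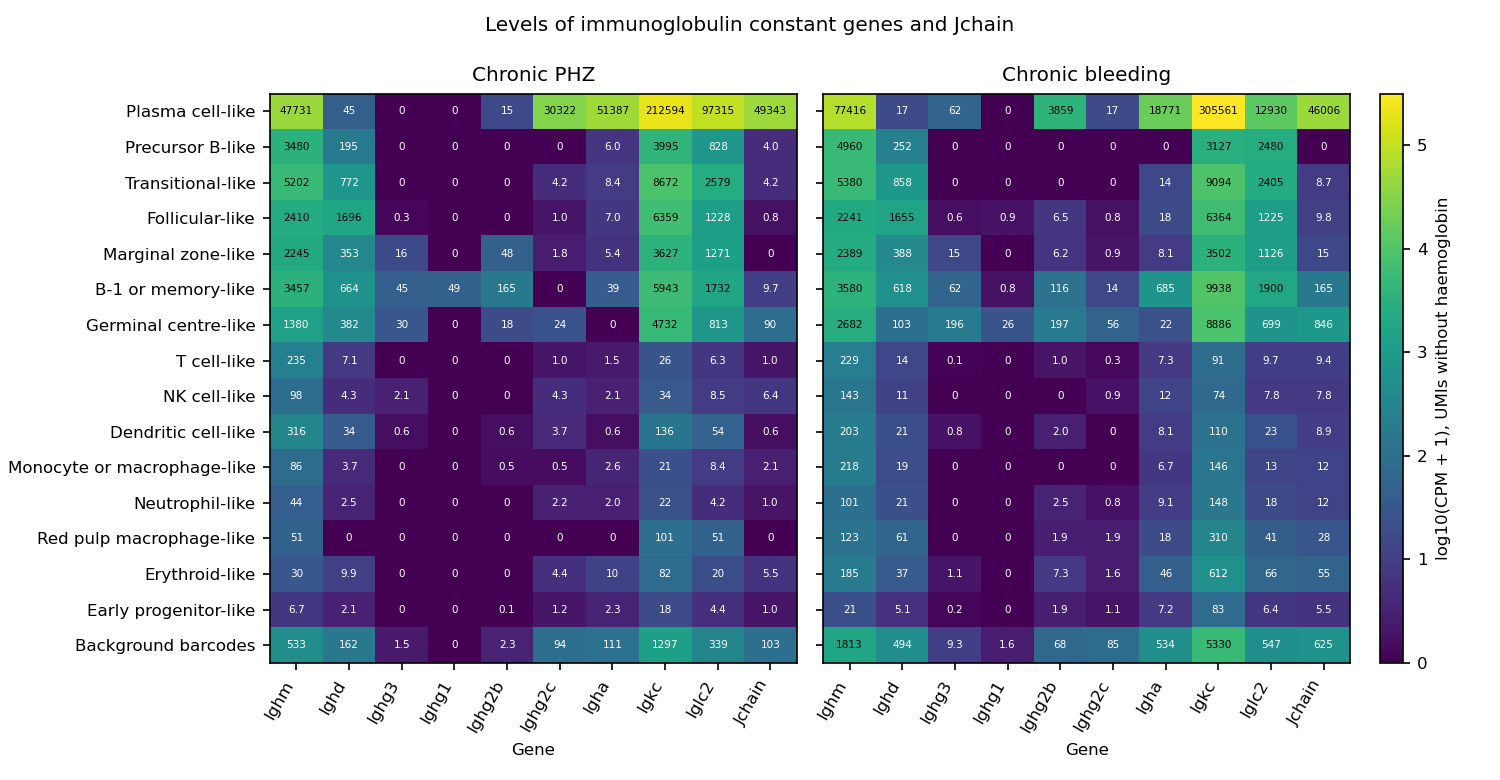
Level of each gene (columns) in each group of cells or barcodes (rows), in CPM printed in the cells and as log10(CPM + 1) in colour, for the PHZ library (left) and the bleeding library (right). Plasma cell-like cells are highest for Igkc (212594 and 305561 CPM), Ighd is highest in follicular-like cells (1696 and 1655), and Ighg1 is at 0 in each class outside B cell-like subsets.

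The other heavy chains had narrower patterns. Ighd was highest in follicular-like cells, at 1696 CPM (1655 to 1738) in PHZ and 1655 (1630 to 1680) in bleeding, and lowest among the B lineage in plasma cell-like cells, at 45.3 and 17.3 CPM. Igha was high in plasma cell-like cells (51387 and 18771 CPM) and next in B-1 or memory-like cells (38.8 and 685), where 1 bleeding cell held 751 of 858 UMIs. Ighg1 gave 29 and 59 UMIs in B cell-like cells and 0 UMIs in each other class, plasma cell-like cells included, which allows up to 3 UMIs per class. Of those UMIs the 3 highest cells of each library held all but 2 and 11.

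Each plasma cell-like cell showed 1 heavy chain class in near isolation. The leading heavy chain gene took 98.9% to 100% of the heavy chain UMIs of a cell in PHZ and 95.1% to 100% in bleeding. In PHZ, 3 of 7 cells were led by Ighm, 2 by Ighg2c and 2 by Igha. In bleeding, 35 of 46 were led by Ighm (76.1%, exact Clopper-Pearson interval 61.2% to 87.4%), 9 by Igha (19.6%, 9.36% to 33.9%) and 2 by Ighg2b. The share led by a switched gene was 4 of 7 (57.1%, 18.4% to 90.1%) and 11 of 46 (23.9%, 12.6% to 38.8%), and these intervals overlap. No plasma cell-like cell in either library was led by Ighd, Ighg1 or Ighg3, which allows 41.0% of cells for each gene in PHZ and 7.71% in bleeding by the exact interval.

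The 7 PHZ cells can be given one by one. The Igha-led cells held 5758 Igha with 16045 Igkc UMIs and 4445 Igha with 11715 Iglc2 UMIs. The Ighg2c-led cells held 2939 Ighg2c with 7362 Igkc UMIs and 3082 Ighg2c with 8505 Igkc UMIs. The Ighm-led cells paired 3947 Ighm with 9994 Igkc, 2496 Ighm with 7977 Iglc1 and 2999 Ighm with 7381 Iglc2 UMIs. Lambda thus led in 3 of 7 PHZ cells, against 6 of 46 bleeding cells (13.0%, 4.94% to 26.3%). All 9 Igha-led and both Ighg2b-led bleeding cells used Igkc, and the lambda cells of that library were all led by Ighm.

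Iglc2 and Iglc3 were separated in plasma cell-like cells in spite of their alike sequences. In the 3 bleeding cells led by Iglc3, Iglc3 gave 3955, 5232 and 11791 UMIs and Iglc2 gave 47, 100 and 36. In the bleeding cell with the most Iglc2, 10254 Iglc2 UMIs stood beside 4 of Iglc3. A single cell of 119716 UMIs, the deepest of the class, held 2301 Iglc1 and 1731 Iglc2 UMIs, and only 5.03% of its UMIs were immunoglobulin or Jchain, against a class median of 54.2%.

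Jchain was present in each of the 53 plasma cell-like cells, whatever their heavy chain. It gave 473 to 2396 UMIs per cell in PHZ and 239 to 3921 in bleeding. Relative to the heavy chain, the Ighm-led PHZ cells had 45.1, 47.2 and 48.9 Jchain UMIs per 100 heavy chain UMIs and the Igha-led cells 41.6 and 44.8. The Ighg2c-led PHZ cells had 16.1 and 16.6, below each IgM and IgA cell of that library. In bleeding, the Ighg2b-led cells had 21.1 and 28.7, the Ighm-led cells a median of 42.4 (11.3 to 191) and the Igha-led cells a median of 62.4 (18.3 to 75.9), so the IgG cells lay inside the range of the others. The IgG transcripts printed above lack the TGC codon that the secreted Ighm and Igha transcripts carry 2 codons before the stop.

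**Figure D2:**
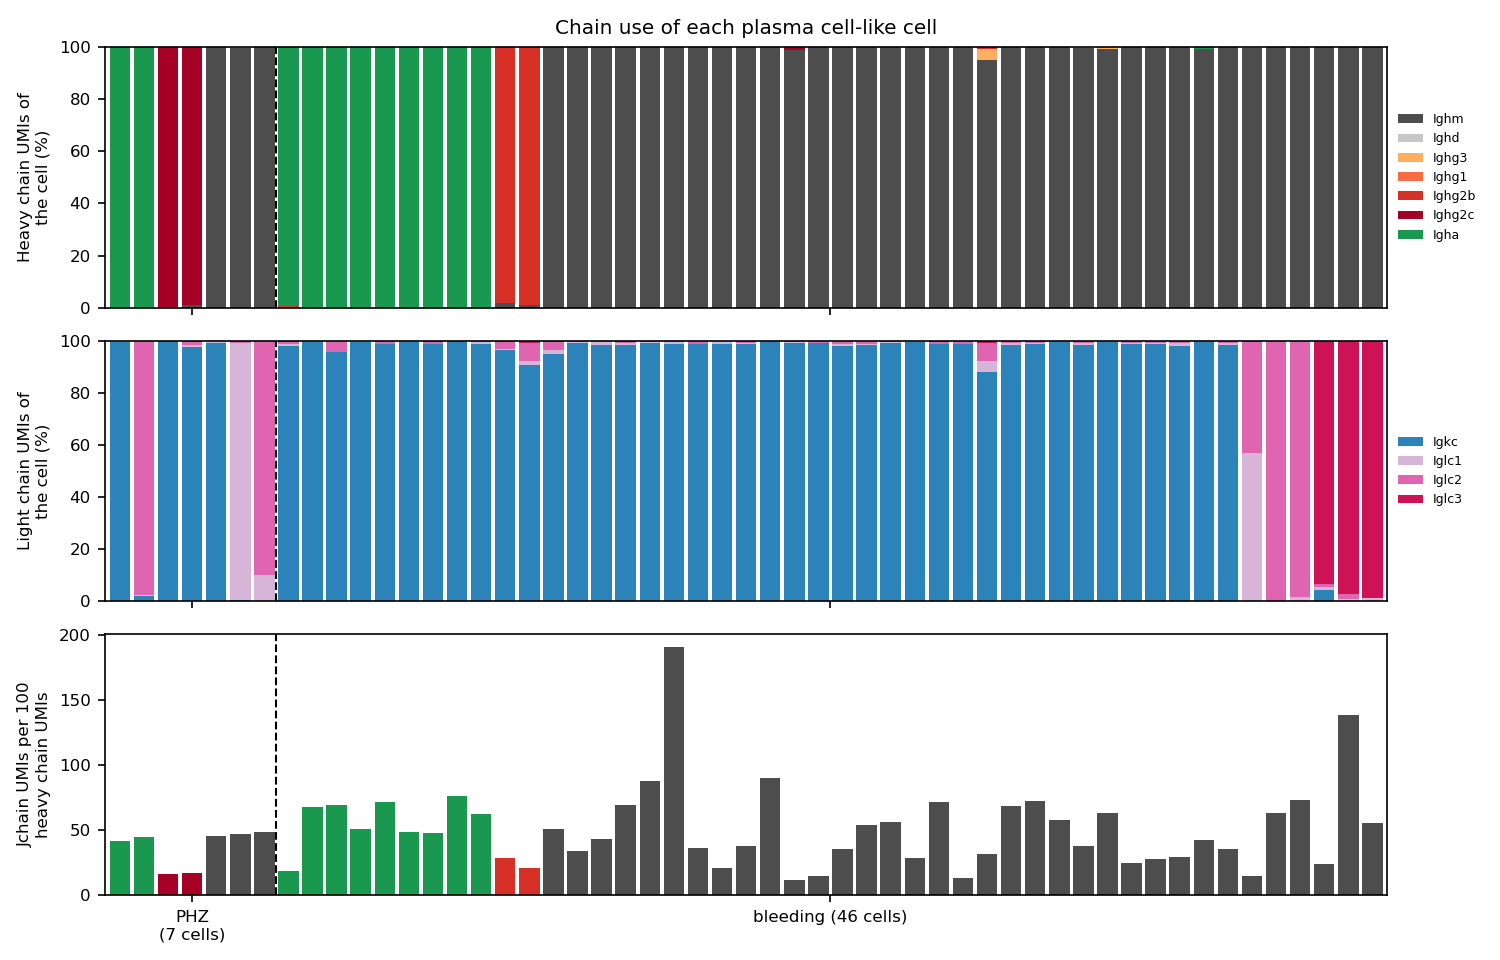
Each bar is 1 plasma cell-like cell, 7 from PHZ (left of the dashed line) and 46 from bleeding. From top to bottom it shows the share of heavy chain UMIs by gene (%), the share of light chain UMIs by gene (%) and the Jchain UMIs per 100 heavy chain UMIs, coloured by the leading heavy chain. The heavy chain bars are nearly 1 colour each, with a lowest leading share of 95.1%, and the Jchain bars run from 11.3 to 191.

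The plasma cell-like classes were small, and the PHZ makeup rests on 7 cells. In a setting added after seeing the data, barcodes with 10% or more immunoglobulin UMIs were taken in place of the class. They had to pass the cell filters, and doublet calls were included. This counted 9 PHZ cells (5 Ighm, 2 Ighg2c, 2 Igha) and 51 bleeding cells (39 Ighm, 10 Igha, 2 Ighg2b). The 2 cells this added in PHZ had been removed as doublets. They were led by Ighm and Igkc, and 51.0% and 67.8% of their UMIs were immunoglobulin or Jchain. Barcodes that failed the filters were left out. They included a PHZ barcode of 2739 UMIs led by Ighm (35.6% immunoglobulin or Jchain). In bleeding they included barcodes of 686 and 3319 UMIs led by Ighg2c (28.4%) and Ighg3 (11.2%). With no doublet removal the order of the libraries turned: Ighm led 35 of 42 PHZ cells and 80 of 118 bleeding cells of the class, of which 9 and 48 had 10% or more immunoglobulin UMIs.

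Among B cell-like cells, the balance of Ighd to Ighm separated the subsets. Follicular-like cells had 0.704 Ighd UMIs per Ighm UMI (0.682 to 0.726) in PHZ and 0.738 (0.724 to 0.753) in bleeding. Transitional-like cells had 0.148 (0.139 to 0.158) and 0.160 (0.149 to 0.170), and marginal zone-like cells 0.157 (0.135 to 0.183) and 0.162 (0.153 to 0.172). The transitional and marginal zone values overlap within each library although Ighm itself was 5202 against 2245 CPM in PHZ. Precursor B-like cells were lowest in PHZ, at 0.0560 (0.0452 to 0.0688), with 0.0507 (0.0200 to 0.107) from 6 cells in bleeding.

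In activated-like cells the ratio lay below that of follicular-like cells in both libraries, and in interferon-stimulated-like cells it did so in PHZ. Activated-like cells had 0.449 (0.404 to 0.498) in PHZ and 0.628 (0.593 to 0.665) in bleeding. Interferon-stimulated-like cells had 0.565 (0.487 to 0.655) and 0.720 (0.663 to 0.782). Over all B cell-like cells the ratio was 0.416 (0.407 to 0.425) in PHZ and 0.477 (0.471 to 0.484) in bleeding, beside 233 and 216 transitional-like cells and 710 and 1843 follicular-like cells.

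**Figure D3:**
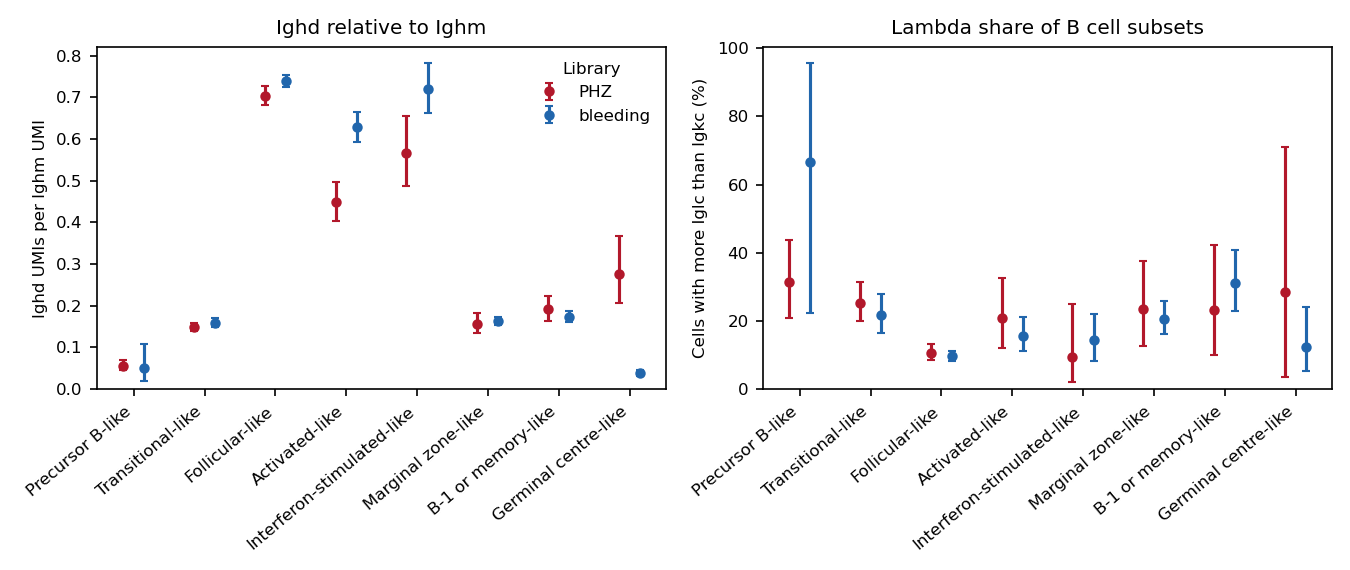
Left, Ighd UMIs per Ighm UMI, and right, the share of cells with more Iglc than Igkc UMIs (%), for each B cell-like subset in PHZ (red) and bleeding (blue), with 95% intervals for counting error. Follicular-like cells stand at 0.704 and 0.738 on the left, and have a lambda share of 10.7% and 9.71% on the right.

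Light chain use followed the subsets too. Of B cell-like cells with at least 3 light chain UMIs, 255 of 1554 in PHZ (16.4%, 14.6% to 18.3%) and 478 of 3550 in bleeding (13.5%, 12.4% to 14.6%) had more lambda than kappa. The share was 10.7% (8.53% to 13.2%) and 9.71% (8.40% to 11.2%) in follicular-like cells. It was higher in transitional-like cells, at 25.3% (19.9% to 31.4%) and 21.8% (16.4% to 27.9%), and in marginal zone-like cells, at 23.5% (12.8% to 37.5%) and 20.7% (16.1% to 25.9%). Of these, only the marginal zone interval of PHZ reached that of follicular-like cells in the same library.

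Lambda UMIs were present in cells that used kappa. In the 1385 PHZ and 3241 bleeding B cell-like cells whose leading light chain gene was Igkc, Igkc had a median of 38 and 36 UMIs. Iglc2 had a median of 6 UMIs in both libraries and was found in 94.5% and 97.0% of these cells, and Iglc3 had a median of 5. Iglc1, the lambda gene whose end differs, had a median of 1. The reverse was seen as well. In the 89 and 166 cells led by Iglc1 (medians of 51 and 43.5 UMIs), Igkc had a median of 1 and 2. It made up 9.40% and 10.1% of their light chain UMIs. In the cells led by Igkc, Iglc1 made up 6.12% and 4.79% of light chain UMIs and Iglc2 13.3% and 12.1%. For comparison, T cell-like cells of greater depth (medians of 8496 and 7771 UMIs, against 5931 and 5751 in B cell-like cells) held an Iglc2 UMI in 5.49% and 7.01% of cells.

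Class-switched B cells were few in both libraries, and how far the libraries differed depended on how cells were grouped. A cell was counted as switched when a switched heavy chain gene had at least 3 UMIs and the switched genes together exceeded Ighm plus Ighd. In PHZ, 4 of 1589 cells met this (0.252%, 0.0686% to 0.643%), and in bleeding 41 of 3597 (1.14%, 0.819% to 1.54%). The same rule counted 0 of 455 and 1 of 1925 T cell-like cells. After each cell was thinned to 1000 UMIs the shares were 0% and 0.25%. Of the 41 bleeding cells, 16 were led by Ighg2b, 9 by Igha, 8 by Ighg2c, 4 by Ighg1 and 4 by Ighg3.

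Most switched cells of the bleeding library sat in the germinal centre-like subset, which held 7 PHZ and 58 bleeding cells. There, 22 of 58 bleeding cells were switched (37.9%, 25.5% to 51.6%), led by Ighg2b in 10, Ighg2c in 6, Ighg3 in 3, Ighg1 in 2 and Igha in 1. In PHZ 0 of 7 were switched, which allows up to 41.0% by the exact interval. B-1 or memory-like cells held 3 of 30 in PHZ and 11 of 112 in bleeding, which are 10.0% and 9.82%. Follicular-like cells held 0 of 710 and 4 of 1843. With clustering resolution 2 the shares were 0.256% in PHZ and 0.352% in bleeding, since 29 of the 41 bleeding cells then lay in clusters outside the B cell-like class. With a lower minimum of UMIs per cell they were 0.267% and 0.338%.

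Jchain in B cell-like cells was concentrated in the same subset. Its level in germinal centre-like cells was 89.6 CPM in PHZ, where 1 of 7 cells held all 15 UMIs, and 846 CPM in bleeding. At least 10 Jchain UMIs were found in 25 bleeding B cell-like cells, of which 22 were germinal centre-like, in 1 PHZ cell and in no T cell-like cell. The median Jchain count was 12.5 UMIs in the 10 germinal centre-like cells led by Ighg2b and 13 in the 6 led by Ighg2c. The germinal centre-like level was carried by few cells, since the 3 highest cells held 57.9% of its Jchain, 56.1% of its Ighm and 62.7% of its Igkc UMIs in bleeding. Without its 2 cells of 10% or more immunoglobulin and Jchain UMIs, Jchain was at 428 CPM and Ighm at 1398. Its leading genes were proliferation genes, and its cells were deep, with a median of 20640 UMIs.

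Between the treatments, Jchain and 3 of the 5 switched heavy chain genes of B cell-like cells were lower in PHZ, while IgM, IgD and the light chains were near equal. A gene was called lower or higher when its whole interval lay beyond 1.5-fold, among genes with at least 50 UMIs over both libraries. Of 10 genes tested, 4 were called lower (Ighg3, Ighg2b, Igha, Jchain) and 0 higher, against 1.13% lower and 1.45% higher of the 11611 genes tested in these cells. The median log2 ratio of the 10 was -0.43, against 0.04 over all genes tested.

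Jchain was at 3.36 CPM in PHZ (34 UMIs) and 63.6 in bleeding (1578 UMIs), a ratio of 0.0529 (0.0365 to 0.0742). Igha was at 7.51 and 50.05 CPM, a ratio of 0.150 (0.118 to 0.189). Ighg3 was at 3.16 and 17.9 CPM (0.176, 0.119 to 0.253) and Ighg2b at 10.6 and 22.1 CPM (0.479, 0.386 to 0.590). These encode the polymer chain and the heavy chains of IgA and of IgG classes.

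The naive receptor genes differed less. Ighm was at 2881 and 2454 CPM, a ratio of 1.17 (1.16 to 1.19), and Ighd at 1198 and 1171 CPM (1.02, 1.0 to 1.04). Igkc had a ratio of 0.996 (0.987 to 1.01) and Iglc2 of 1.18 (1.16 to 1.21). Ighg1 (1.21, 0.745 to 1.91) and Ighg2c (0.553, 0.343 to 0.859) had intervals that crossed 1.5-fold.

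The low-count genes rested on few cells and on 2 small subsets. In bleeding, 1129 of the 1578 Jchain UMIs were in germinal centre-like cells and 858 of the 1242 Igha UMIs in B-1 or memory-like cells, with 751 of them in 1 cell. That cell had 9001 UMIs, of which 45.4% were immunoglobulin or Jchain. Without the 3 cells of each library with the most UMIs of the gene, the ratio was 0.358 (0.271 to 0.466) for Igha, 0.232 (0.163 to 0.323) for Ighg2b, 0.200 (0.114 to 0.327) for Ighg3 and 0.0386 (0.0210 to 0.0650) for Jchain, and 4 genes were again called lower. Without the 6 bleeding cells of 10% or more immunoglobulin and Jchain UMIs (a setting added after seeing the data), the same 4 genes were called, with Jchain at 0.106 (0.0726 to 0.149) and Igha at 0.379 (0.294 to 0.483).

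When germinal centre-like and B-1 or memory-like cells were left out (a setting added after seeing the data), Ighg3, Igha and Jchain were called lower among the 8 of the 10 genes with enough UMIs, against 0.493% of 11360 genes lower and 1.77% higher. Igha then had a ratio of 0.416 (0.314 to 0.544) and Jchain of 0.153 (0.0858 to 0.253). Ighg2b moved to 0.873 (0.624 to 1.21). In these remaining cells Jchain stood at 1.66 and 10.9 CPM and Igha at 6.64 and 16.0, beside 1.01 and 9.38 CPM of Jchain and 1.51 and 7.31 of Igha in T cell-like cells, so the Jchain levels were close to those of cells that do not make it.

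Within subsets the pattern was uneven. In follicular-like cells 3 of 7 tested were lower in PHZ (Igha, Jchain and Ighg2b), and 0 higher, against 0.0905% and 0.211% of genes. Ighg2b there had 0 UMIs in PHZ and 66 in bleeding, at least 8.45-fold lower when the 0 is set to a floor of 3 counts for the whole group. That call rested on few cells. Only 24 of 1843 bleeding cells held an Ighg2b UMI, and the 3 highest held 65.2% of the 66, with 25 in 1 cell. In B-1 or memory-like cells 3 of 8 were lower, Igha at 0.0567 (0.0292 to 0.0996), Jchain at 0.0588 (0.0120 to 0.174) and Igkc at 0.598 (0.569 to 0.628), against 0.815% of genes lower and 0.439% higher, with 30 PHZ cells. These 3 calls rested on the 3 of 112 bleeding cells with 10% or more immunoglobulin and Jchain UMIs. Without them (a setting added after seeing the data) the ratios were 0.444 (0.222 to 0.808) for Igha, 1.06 (1.01 to 1.12) for Igkc and 0.742 (0.139 to 2.59) for Jchain. In transitional-like cells 0 of 4 were called, against 0.0302% of genes lower and 0.151% higher, and in marginal zone-like cells 0 of 5, against 0.202% and 0.0807%. Ighg2b went the other way in marginal zone-like cells, at 48.3 CPM (31.9 to 70.3) in PHZ and 6.21 (3.79 to 9.58) in bleeding. Its 27 and 20 UMIs are below the 50 that a call needs, and the 27 came from 2 cells, with 17 in 1.

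Cells outside the B lineage carried UMIs of these genes, in a different mix in T cell-like and in erythroid-like cells. In background barcodes 0.411 Ighm UMIs were found per Igkc UMI (0.385 to 0.437) in PHZ and 0.340 (0.329 to 0.352) in bleeding. Erythroid-like cells were near that, at 0.362 (0.320 to 0.409) and 0.302 (0.281 to 0.323). T cell-like cells had 8.89 (7.26 to 11) in PHZ and 2.52 (2.37 to 2.69) in bleeding. Dendritic cell-like cells had 2.32 (1.97 to 2.72) and 1.86 (1.60 to 2.16), and monocyte or macrophage-like cells 4.08 (2.87 to 5.91) and 1.5 (1.17 to 1.92).

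Iglc2 and Jchain did not part from the background in this way in T cell-like cells. Iglc2 per Igkc UMI was 0.238 (0.147 to 0.371) and 0.107 (0.0895 to 0.126) in T cell-like cells, 0.246 and 0.108 in erythroid-like cells, and 0.261 (0.242 to 0.281) and 0.103 (0.0970 to 0.109) in background barcodes. Jchain per Igkc UMI in T cell-like cells was 0.0381 (0.0102 to 0.101) and 0.103 (0.0863 to 0.122), against 0.0793 and 0.117 in background barcodes. Ighd per Ighm UMI was 0.0300 (0.0198 to 0.0437) and 0.0601 (0.0520 to 0.0690) in T cell-like cells, against 0.304 and 0.273 in background barcodes. Set against the background mix, T cell-like cells thus held more Ighm for their Igkc and less Ighd for their Ighm.

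**Figure D4:**
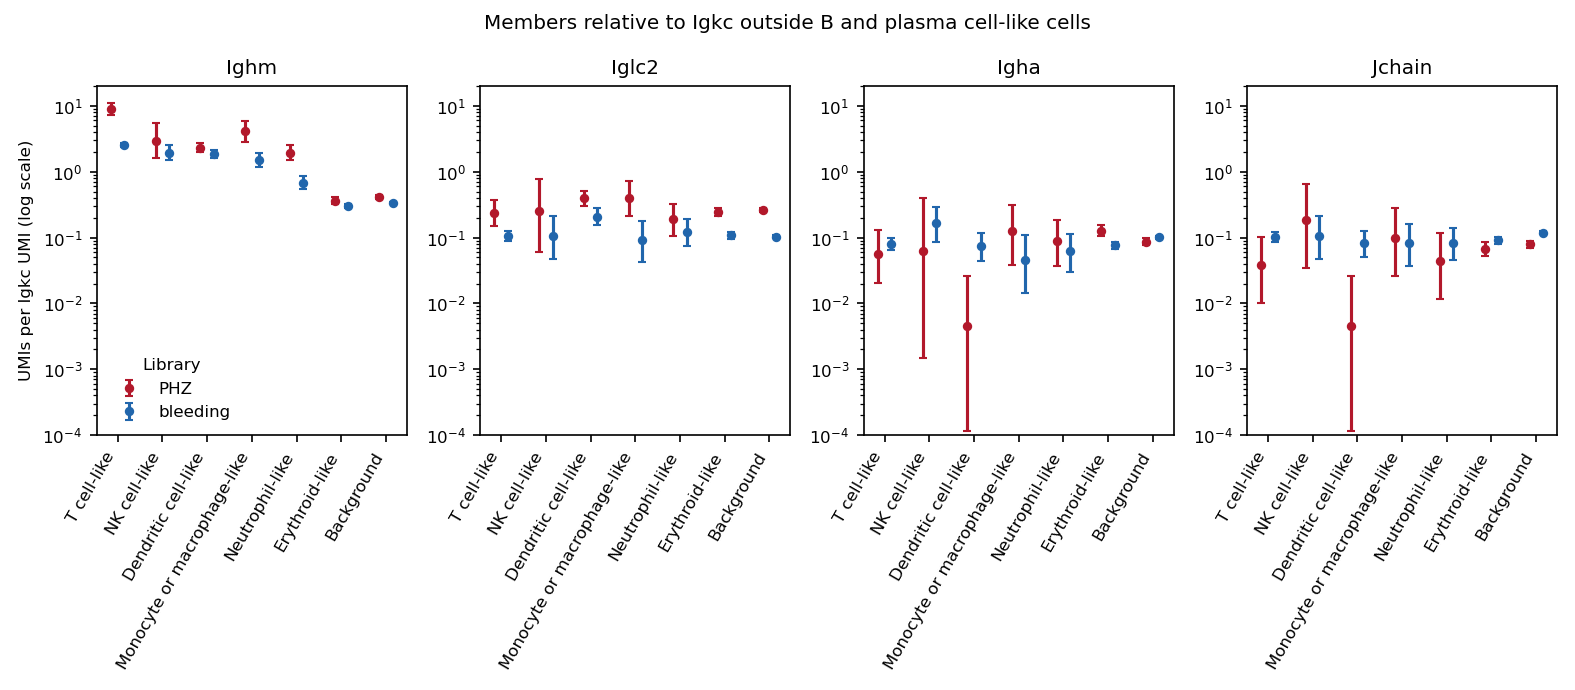
UMIs of Ighm, Iglc2, Igha and Jchain per Igkc UMI (log scale) in classes outside the B lineage and in background barcodes, for PHZ (red) and bleeding (blue), with 95% intervals for counting error. For Ighm the T cell-like values (8.89 and 2.52) lie above the background (0.411 and 0.340), while for Iglc2 they lie beside it.

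The Ighm UMIs of T cell-like cells were spread over most of the cells. A UMI was found in 70.3% (65.9% to 74.5%) of PHZ and 71.7% (69.6% to 73.7%) of bleeding T cell-like cells, and in 10.9% and 36.1% of erythroid-like cells. With haemoglobin counted, the median depth of erythroid-like cells was greater (15828 and 13769 UMIs against 8496 and 7771). Without haemoglobin they held fewer UMIs per cell. The totals were 12102207 and 5608128 UMIs over 2947 and 2198 erythroid-like cells, and 3964149 and 15459247 over 455 and 1925 T cell-like cells. After thinning to 1000 UMIs the shares were 19.6% and 19.9% in T cell-like and 0.679% and 3.55% in erythroid-like cells. Thinning drew from all UMIs, haemoglobin included, so these shares were not at equal depth in the other genes. Among T cell-like cells with no Igkc UMI, 69.2% of 370 and 70.0% of 1041 had Ighm, with a mean of 1.87 and 1.68 UMIs. The Ighm level of T cell-like cells hardly differed between libraries, with a ratio of 1.03 (0.953 to 1.10), while background barcodes had 0.294 (0.276 to 0.312).

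Variable segments were scarce beside this Ighm. Per 100 Ighm UMIs, T cell-like cells had 0.322 Ighv UMIs (0.0662 to 0.943, from 3 UMIs) in PHZ and 0.367 (0.195 to 0.628, from 13) in bleeding. B cell-like cells had 2.25 (2.08 to 2.43) and 2.66 (2.53 to 2.79), and background barcodes 0.865 (0.446 to 1.52) and 0.821 (0.577 to 1.13). The T cell-like intervals overlap those of the background and lie below those of B cell-like cells. The source of these UMIs was not tested.

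In T cell-like cells, 3 of the 6 genes tested were lower in PHZ (Igkc, Igha, Jchain), and 0 higher, against 0.265% and 0.72% of 10555 genes. Igkc was at 26.5 and 90.9 CPM, a ratio of 0.291 (0.237 to 0.355). In erythroid-like cells 6 of 7 were lower (Ighm, Ighd, Igha, Igkc, Iglc2 and Jchain), and 0 higher, against 4.18% and 1.46% of 8205 genes. Igkc there was at 82.2 and 612 CPM, a ratio of 0.134 (0.125 to 0.144). Ighg2c went the other way, at 4.38 and 1.60 CPM (2.73, 1.33 to 6.29), without passing 1.5-fold over its whole interval.

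Background barcodes differed in the same direction. There 6 of 8 genes were lower in PHZ (Ighm, Ighd, Ighg2b, Igha, Igkc, Jchain), and 0 higher, against 14.1% and 7.32% of 8961 genes, so calls of this kind were common in these barcodes. Igkc was at 1297 and 5330 CPM (0.243, 0.234 to 0.253) and Jchain at 103 and 625 (0.165, 0.144 to 0.187). Ighg2c was at 94.5 and 85.3 CPM (1.11, 0.918 to 1.34). When the background profile was subtracted, 0 of the genes were called lower in T cell-like cells.

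Smaller classes gave fewer tests. In neutrophil-like cells, 2 of 2 genes tested (Ighm and Igkc) were lower in PHZ, against 1.08% of genes lower and 0.513% higher. In dendritic cell-like cells 0 of 4 were lower, against 0.578%, and 1 was higher, Iglc2 at 2.35 (1.66 to 3.36), against 2.1%. The 3 highest of the 95 PHZ cells held 84.9% of those 86 Iglc2 UMIs, with 54 in 1 cell.

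**Figure D5:**
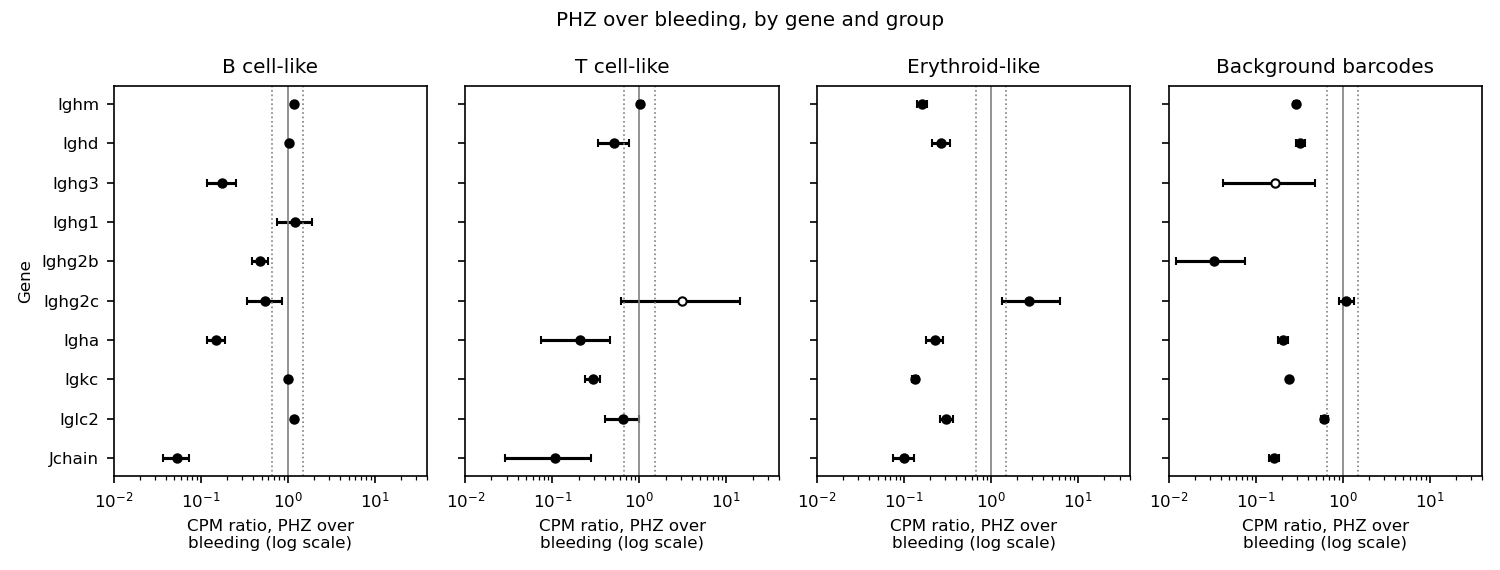
CPM ratio of PHZ over bleeding (log scale) for each gene in B cell-like cells, T cell-like cells, erythroid-like cells and background barcodes, with 95% intervals for counting error; dotted lines mark 1.5-fold, open points have under 50 UMIs over both libraries and genes at 0 in a library are not drawn. Ighm lies near 1 in B and T cell-like cells (1.17 and 1.03) and below it in erythroid-like cells and background barcodes (0.161 and 0.294).

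A few cells held much of the antibody RNA of each library. The 7 plasma cell-like cells of PHZ held 91.0% of all Igha UMIs of the matrix, 90.9% of Ighg2c, 83.7% of Jchain, 50.2% of Iglc2 and 28.7% of Igkc. The 46 of bleeding held 92.1% of Jchain, 85.2% of Ighg2b, 81.9% of Igha and 67.7% of Igkc, but 3.85% of Ighg2c. The Igkc shares depend on which barcodes were kept. Barcodes of 1000 or more UMIs that were not kept held 24.1% of Igkc in PHZ and 4.05% in bleeding. In PHZ, 2 of them, removed as doublets, held 22406 and 6016 of the 146986 Igkc UMIs. B cell-like cells held most of the Ighd, 83.8% and 81.7%. The Ighg2c and Igha of the PHZ library thus came mostly from the 2 plasma cell-like cells led by each. Immunoglobulin genes and Jchain were 0.253% of all UMIs in PHZ and 0.766% in bleeding.

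Relative to Igkc, Ighg2c was higher in PHZ than in bleeding in plasma cell-like cells, background barcodes and erythroid-like cells. Background barcodes held 246 and 212 Ighg2c UMIs beside 3378 and 13247 of Igkc, so their ratio differed mainly through Igkc. Ighg2c per Igkc UMI was 0.143 in PHZ and 5.65e-05 in bleeding plasma cell-like cells, 0.0728 (0.0637 to 0.0829) and 0.0160 (0.0139 to 0.0183) in background barcodes, and 0.0533 (0.0396 to 0.0702) and 0.00262 (0.00120 to 0.00498) in erythroid-like cells. Switched genes were 63.1% and 22.7% of heavy chain UMIs in plasma cell-like cells and 23.2% in background barcodes of both libraries.

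The other genes of the pathway were described by lists of antibody partners in B cell-like cells, over the same 11611 genes. Of 12 antigen receptor partners, 12 were tested and 0 were called, with a median log2 ratio of 0.05; Cd79a and Cd79b, the signalling chains of the receptor, were at 1.05 (1.04 to 1.07) and 1.09 (1.07 to 1.11), the kinase Lyn at 1.07 and Ms4a1, the surface protein CD20, at 1.02. Among abundant DNA repair genes that also act in class switching, Rif1 was at 0.941, Xrcc5 at 1.04 and Xrcc6 at 1.55 (1.39 to 1.74), whose interval crossed 1.5-fold. Of the 18 folding and secretion genes 0 were called, with a median of -0.10; Mzb1, a chaperone for IgM assembly, was at 0.819, Hspa5, the heavy chain binding protein, at 0.911, the chaperone Hsp90b1 at 1.15 and the translocon subunit Sec61b at 0.968. Of 10 antibody receptors, 6 were tested and 0 called, with a median of -0.18. Fcmr, the IgM receptor, was at 0.863, Fcer2a, the low-affinity IgE receptor, at 1.01, Fcgr2b, the inhibitory IgG receptor, at 0.901 and Fcrl5 at 0.662.

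The plasma cell regulators gave 1 call in each direction among 10 tested, with a median of 0.007. The most abundant were transcription regulators and a receptor of the survival factor BAFF: Zbtb20 was at 0.912, Pou2af1 at 1.27, Irf4 at 1.0 and Tnfrsf13b at 1.09. Prdm1, the plasma cell transcription factor Blimp-1, was at 0.351 (0.185 to 0.617) with 14 and 98 UMIs. Cd93, which is also a surface marker of immature B cells, was at 3.71 (2.99 to 4.6). The surrogate light chain list, whose products pair with IgM heavy chain in precursor B cells, had 3 of 3 tested genes higher in PHZ. Vpreb1 was at 67.1 (37.0 to 136), Vpreb3 at 2.24 (2.15 to 2.33), and Igll1 had 134 UMIs against 0 (Vpreb2 had 41 against 0 and was not tested), at least 110-fold higher with the 0 set to that floor. Beside this, the B cell-like class held 83 precursor B-like cells in PHZ and 6 in bleeding. Vpreb1 and Igll1 were among the markers that named these cells, so the gene levels and the cell counts are not independent. Vpreb3 and Cd93 were likewise among the markers that named transitional-like cells. Within follicular-like, transitional-like and marginal zone-like cells, Vpreb3 was the 1 gene of the list with enough UMIs and was not called, at 1.15 (1.06 to 1.247), 1.04 (0.959 to 1.12) and 1.33 (0.832 to 2.05).

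Finally, the genes whose levels ran most alike were sought by Pearson correlation of log2(CPM + 10). This was done for 14597 genes over 30 groups of cell class or B cell-like subset by library, each of at least 20 cells. The 7 plasma cell-like cells of PHZ were too few, so the plasma cell-like class entered from bleeding only. For Igkc they were Gm30211 (0.97), Mzb1 (0.96), Dennd5b (0.93), Pou2af1 (0.92) and Cd79a (0.91), and for Ighm Gm30211 (0.94), Mzb1 (0.93), Pou2af1 (0.91), Dennd5b (0.91) and E330020D12Rik (0.90). For Jchain they were Gm48370 (0.96), Chst1 (0.94), 4933404K13Rik (0.92), Derl3 (0.90) and Ccr10 (0.87), and for Igha Oosp1 (0.88), Ccr10 (0.87), Derl3 (0.86), Prg2 (0.86) and Tnfrsf17 (0.85). The groups share libraries and free RNA, and Mzb1, Derl3, Tnfrsf17 and Cd79a were among the markers that named the classes. These values therefore describe the pattern and carry no test.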

How the data were processed

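Per the labels, live spleen cells of both treatments were run with 10x Genomics 3′ v3.1 chemistry. The authors deposited UMI counts as a raw matrix of genes by barcodes that includes empty droplets. The submitters' processing notes name Cell Ranger 7.0.0 and build mm10; the annotation and the handling of intronic reads are not given in the sources used here. A cell had at least 1000 UMIs, 300 genes and at most 10% mitochondrial UMIs. Scrublet (scanpy 1.11.5, expected rate 0.06) scored doublets, and the top 0.8% per 1000 cells were removed, 332 and 754. Both libraries were clustered together (2000 variable genes, 30 components, 15 neighbours, Leiden resolution 1, leidenalg 0.10.2) without immunoglobulin, T cell receptor, haemoglobin, mitochondrial, ribosomal and sex-linked genes. Clusters were named by markers, with naming thresholds set after the data were seen. UMIs were summed per class; ratios carry exact conditional binomial intervals, shares Clopper-Pearson intervals. The call rule was checked on simulated class totals that held counting error only, so UMIs gathered in few cells were not covered by that check. All 10 genes are named, and of each list the 4 genes with the most UMIs, except that some results of the class switching list are not reported here; Prdm1 and Cd93 were named after their values were seen, and the genes most alike are the 5 of highest correlation. Genes and lists were chosen with earlier results of these data known. Sequences are from GENCODE M21 (GRCm38).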

Additional observations from a re-analysis of the deposited data

Results flagged for a closer look

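Ighg2c was found in barcodes of over 100 UMIs that were not kept as cells, which belong to no comparison above. In PHZ these barcodes held 174 of the 6623 Ighg2c UMIs of the matrix, and in bleeding 242 of 623, above the 3 UMIs that a count of 0 allows. Background barcodes held a further 3.71% and 34.0% of Ighg2c UMIs, so in bleeding most of them lay outside the kept cells. Of the 242 in bleeding, 114 were in 1 barcode of 686 UMIs with 138 genes and 35.4% mitochondrial UMIs. Of the 174 in PHZ, 60 were in barcodes of 1000 or more UMIs.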

How the results depend on the processing

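No paired analysis was possible because each treatment had 1 library. In B cell-like cells 3 or 4 genes were called lower in PHZ under each setting tried, and Ighg2b was the one lost, for example with a 2-fold limit or with resolution 2. In T cell-like cells 0 were called after background subtraction, against 3. The switched share of bleeding B cell-like cells (1.14%) was 0.751% with at least 10 UMIs for a call, 0.25% after thinning to 1000 UMIs, 0.338% with a lower minimum of UMIs per cell (0.267% in PHZ), 0.605% with a lower minimum of genes, 0.507% with no doublet removal and 0.352% at resolution 2 (0.256% in PHZ), so the libraries nearly met with the lower UMI minimum and at resolution 2; in PHZ thinning gave 0%, against 0.252%. Of the 41 bleeding cells, 30 (lower UMI minimum) and 29 (resolution 2) moved to other classes, and 23 to the plasma cell-like class with no doublet removal. The Ighm share of plasma cell-like cells (42.9% in PHZ, 76.1% in bleeding) was 83.3% and 67.8% with no doublet removal, which turned the order of the libraries, when 9 of 42 and 48 of 118 cells had 10% or more immunoglobulin UMIs; the Igha share (28.6%) was 0% without the 3 highest cells. Low UMI counts limit the IgG genes, and 7 PHZ plasma cell-like cells limit their makeup.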
